A study of Mus musculus with 21 samples.

Results

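Paneth cells sit at the base of the small intestinal crypt beside the Lgr5+ stem cells and secrete antimicrobial proteins into the crypt lumen. The best known of their products are the alpha-defensins, and the 7 genes described here are Paneth cell genes of other families: Lyz1, Lyz2, Ang4, Mmp7, Itln1, Habp2 and Nupr1. They were chosen by name, 7 of the 37310 genes in the deposited tables, and each was followed across 7 groups of 3 libraries. All 7 passed the filter on low counts that left 16050 tested genes.

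The RNA came from sorted intestinal cells of mice that all carry the Lgr5EGFPcre-ERT2 allele, in which the Lgr5 promoter drives EGFP and a Cre recombinase fused to the ERT2 hormone-binding domain. Crypt cells with the brightest Lgr5-driven fluorescence were collected in bulk, so each library averages over the sorted cells of the stem cell gate and over any Paneth cell RNA that came through it. The mice ate 1 purified diet from weaning until 3 months of age. The group AIN_VdrKO ate AIN76A and also lacks Vdr, the vitamin D receptor, by its label. NWD1VitD ate NWD1 with vitamin D raised to a labelled 2.3 IU per g of body weight, AINlowVitD ate AIN76A with vitamin D set at a labelled 0.11 IU per g, and NWD1Ca ate NWD1 with calcium raised to a labelled 7.0 mg per g of body weight. NWD2 and NWD1 ate the diets of those names, whose makeup the labels used here do not give, and AIN ate the control diet AIN76A. The NWD1Ca mice were all female and the AIN_VdrKO mice all male, and the other groups held both sexes. The labels do not say whether the 3 libraries of a group came from separate mice. Groups that held both sexes drew on more than 1 mouse, and for NWD1Ca and AIN_VdrKO this is not known. Each p-value thus measures the spread between these libraries, part of which may be technical.

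Each member has its own job. Lyz1 encodes the lysozyme of Paneth cell granules, which cuts bacterial cell walls, and Lyz2 its near-identical relative of macrophages and other myeloid cells. Ang4 encodes an angiogenin-family ribonuclease that kills bacteria in the mouse gut. Mmp7 encodes matrilysin, the protease that cuts mouse pro-alpha-defensins into their active form. Itln1 encodes intelectin, a secreted lectin that binds sugars of microbial surfaces. Habp2 encodes a secreted serine protease that binds hyaluronan, and Nupr1 a small nuclear protein induced by cell stress.

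The lysozyme genes lie side by side on mouse chromosome 10, both on the minus strand, and the stretches ahead of their starts are shown to let the pair be read against each other. The sequences are RefSeq promoters of build GRCm38.p6, 250 bases before the start, 5′ to 3′ along the gene, at chr10:117292869-117293118 for Lyz1 and chr10:117282273-117282522 for Lyz2. Capitals mark the bases that differ from the other gene in the alignment of the pair.
Lyz1: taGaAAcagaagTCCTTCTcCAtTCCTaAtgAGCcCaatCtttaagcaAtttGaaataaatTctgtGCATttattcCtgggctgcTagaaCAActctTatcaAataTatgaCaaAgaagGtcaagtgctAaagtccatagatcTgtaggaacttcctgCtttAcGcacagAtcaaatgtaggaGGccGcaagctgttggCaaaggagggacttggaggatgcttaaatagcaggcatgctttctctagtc
Lyz2: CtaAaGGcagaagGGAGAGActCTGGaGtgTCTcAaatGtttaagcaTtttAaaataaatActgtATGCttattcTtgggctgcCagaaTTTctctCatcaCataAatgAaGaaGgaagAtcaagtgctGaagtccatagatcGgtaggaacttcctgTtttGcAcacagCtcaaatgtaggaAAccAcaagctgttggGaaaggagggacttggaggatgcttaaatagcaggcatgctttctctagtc
Of 252 alignment columns 200 were identical, an identity of 79.4%, and of the 100 columns nearest the start 92 were identical. The transcripts share sequence too: 16.1% of all 50-base windows of the longest Lyz1 transcript in GENCODE M21 occur unchanged in a Lyz2 transcript, and 2.06% of its 100-base windows do. The counts of both genes are therefore uncertain where reads could fall on either, and Lyz1 held between 99.0% and 99.98% of the summed Lyz1 and Lyz2 counts in every library.

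Mmp7 and Ang4 are shown because they alone among the members hold a match to the AP-1 motif TGANTCA in the same 250-base window, on either strand, which 6.75% of 32851 RefSeq mouse promoters of that length hold. Both windows are read on the gene's strand in build GRCm38.p6, at chr9:7691840-7692089 on the plus strand for Mmp7 and chr14:51773591-51773840 on the minus strand for Ang4. Capitals mark TGANTCA matches in both and, in Mmp7, the matches to TATAAA, the TATA box.
Mmp7: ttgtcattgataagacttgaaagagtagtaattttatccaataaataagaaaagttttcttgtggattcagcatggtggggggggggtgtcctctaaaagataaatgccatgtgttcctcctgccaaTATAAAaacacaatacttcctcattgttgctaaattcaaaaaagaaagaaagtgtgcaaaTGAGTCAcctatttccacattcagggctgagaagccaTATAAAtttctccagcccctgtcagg
Ang4: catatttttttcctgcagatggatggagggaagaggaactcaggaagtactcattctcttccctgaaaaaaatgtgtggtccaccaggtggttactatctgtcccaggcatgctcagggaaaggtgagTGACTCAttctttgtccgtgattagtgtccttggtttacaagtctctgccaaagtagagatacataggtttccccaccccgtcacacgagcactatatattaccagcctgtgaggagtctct
TATAAA occurred in 12.4% of all windows and, of the 7 members, in Mmp7 alone. TCAAAG, the core of the TCF/LEF motif of Wnt signalling, occurred in 13.8% of all windows and in none of the 7. These matches describe the letters of the windows only.

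Libraries held 19889800 to 115435000 counts on genes, to 6 significant digits. The first principal component of log2 CPM held 43.9% of the variance and split the groups: AIN, NWD1 and NWD2 lay on its negative side, NWD1VitD, AINlowVitD and NWD1Ca on its positive side between 71.2 and 79.2, and the AIN_VdrKO libraries at 43.8, 3.83 and -21.9. The labels name no batch, so anything else that set these groups of libraries apart cannot be told apart from their diets. Lgr5, the gene of the sort, had 0.998 to 26.7 TPM over the libraries. Gene-level Vdr was 105 ± 34.1 TPM in AIN_VdrKO and 187 ± 124 TPM in AIN (SD, n = 3 each); the labels do not say which part of the gene is deleted, so a gene-level count does not check the genotype, and "AIN_VdrKO" below means the libraries so labelled. In bulk RNA, fewer cells of a type and less RNA per cell cannot be told apart.

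TPM, the deposited transcripts per 1000000 corrected for gene length, gives the levels below, and CPM, counts per 1000000 with TMM scaling of library sizes, is the scale of the fitted fold changes. The choice of scale touches fold changes between the sides of that split. Relative to the fit, log2(TPM + 1) shifted the median log2 fold change of all tested genes by -1.38 in NWD1VitD against NWD1, -1.15 in NWD1Ca against NWD1, -0.96 in AINlowVitD against AIN and 0.74 in AIN_VdrKO against AINlowVitD. The shift was 0.40 and 0.38 in NWD1 and NWD2 against AIN, and -0.23 in AIN_VdrKO against AIN. A member's log2 fold change on TPM is best read against that shift.

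Lyz1 was the most abundant member per length in 20 of 21 libraries. Its level was 2339, 12956 and 4765 TPM in AIN_VdrKO, 554, 1203 and 2171 TPM in NWD1VitD, 254, 1614 and 545 TPM in AINlowVitD, and 408, 354 and 822 TPM in NWD1Ca. It was 3176, 1906 and 2289.9 TPM in NWD2, 6288, 2364 and 3203 TPM in NWD1, and 1788, 3058 and 3307 TPM in AIN. The second AIN_VdrKO library stood highest, and the levels spanned 50.9-fold down to the first AINlowVitD library. Ordered by mean, AIN_VdrKO came first with 6687 ± 5563 TPM, then NWD1, AIN, NWD2, NWD1VitD and AINlowVitD, and NWD1Ca last with 528 ± 256 TPM (SD, n = 3 each), and the libraries of every pair of neighbours in that order overlapped. Itln1 was laid out alike, between 244 and 9588 TPM, with the same libraries at its ends.

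**Figure D1:**
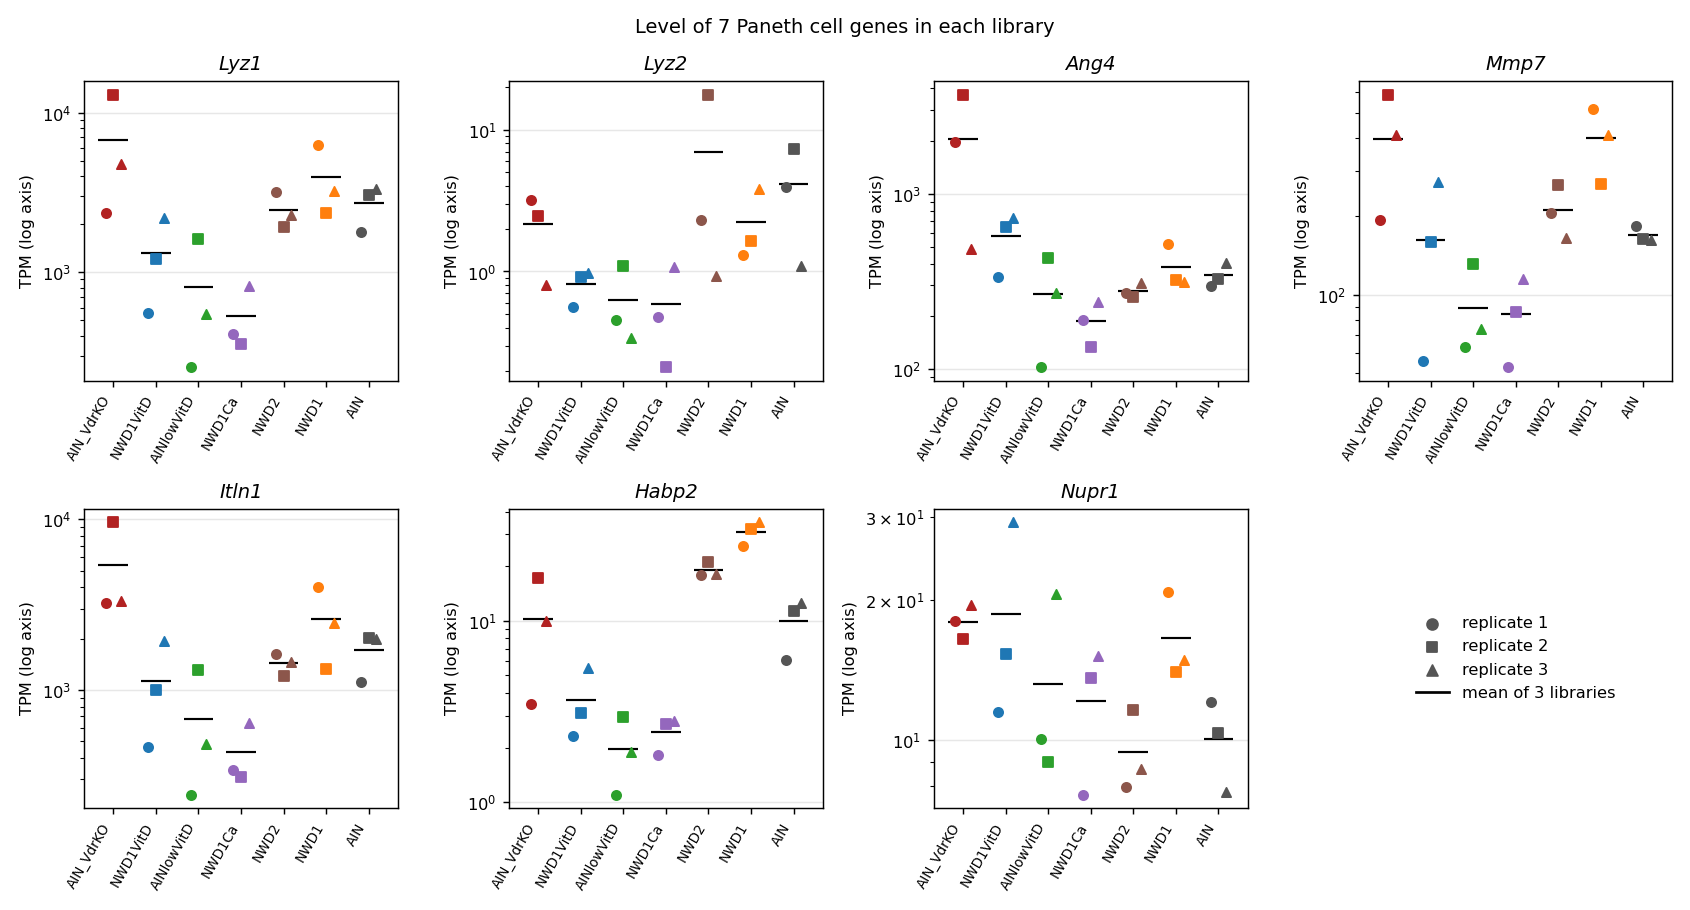
Level of each gene in TPM on a log axis, 1 panel a gene, with 1 marker a library and a line at the mean of 3. The second AIN_VdrKO library holds the highest value of Lyz1, Itln1, Ang4 and Mmp7, and the Habp2 panel separates NWD1 at 25.7 to 34.9 TPM from AIN at 6.09 to 12.5 TPM.

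Across 11 comparisons edgeR's quasi-likelihood test, with Benjamini-Hochberg adjustment over all 16050 tested genes, called a member 6 times at an adjusted p under 0.05. In NWD1VitD against NWD1, where 40.5% of all tested genes were called, 3 members changed: Ang4 and Nupr1 were higher and Habp2 lower. In NWD1Ca against NWD1, with 30.5% of all genes called, Habp2 alone changed, and in AINlowVitD against AIN, with 31.3% called, Nupr1 alone. In AIN_VdrKO against AIN, with 12.5% called, Ang4 alone changed. Set against those shares, 3 of 7 and 1 of 7 members lie near or below the background and are no result about the members as a group. In AIN_VdrKO against AINlowVitD, with 3.07% called, edgeR called 0 members, DESeq2 called 2, and 4 had an unadjusted p under 0.05. Of all 16050 tested genes DESeq2 called 1166 there, and 3239 had an unadjusted edgeR p under 0.05. The count was also 0 for NWD1 against AIN, with 0.766% of genes called. There 1 member, Habp2, was among the 2436 tested genes at an unadjusted p under 0.05. It was 0 for NWD2 against NWD1, with 0.00623% called and 1 member, Lyz2, among the 1717 tested genes under 0.05 unadjusted. DESeq2 called 0 members in both. In NWD2 against AIN, edgeR called 0 genes of all, with 1099 at an unadjusted p under 0.05 and 4 called by DESeq2, and none of these were members. Among the 3 groups on the positive side of the first principal component, edgeR called 0 genes of all in NWD1VitD against NWD1Ca, AINlowVitD against NWD1Ca and NWD1VitD against AINlowVitD. At an unadjusted p under 0.05 these held 372, 209 and 467 genes, of which 3, 0 and 0 were members, and DESeq2 called 3, 5 and 8 genes with 0 members.

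**Figure D2:**
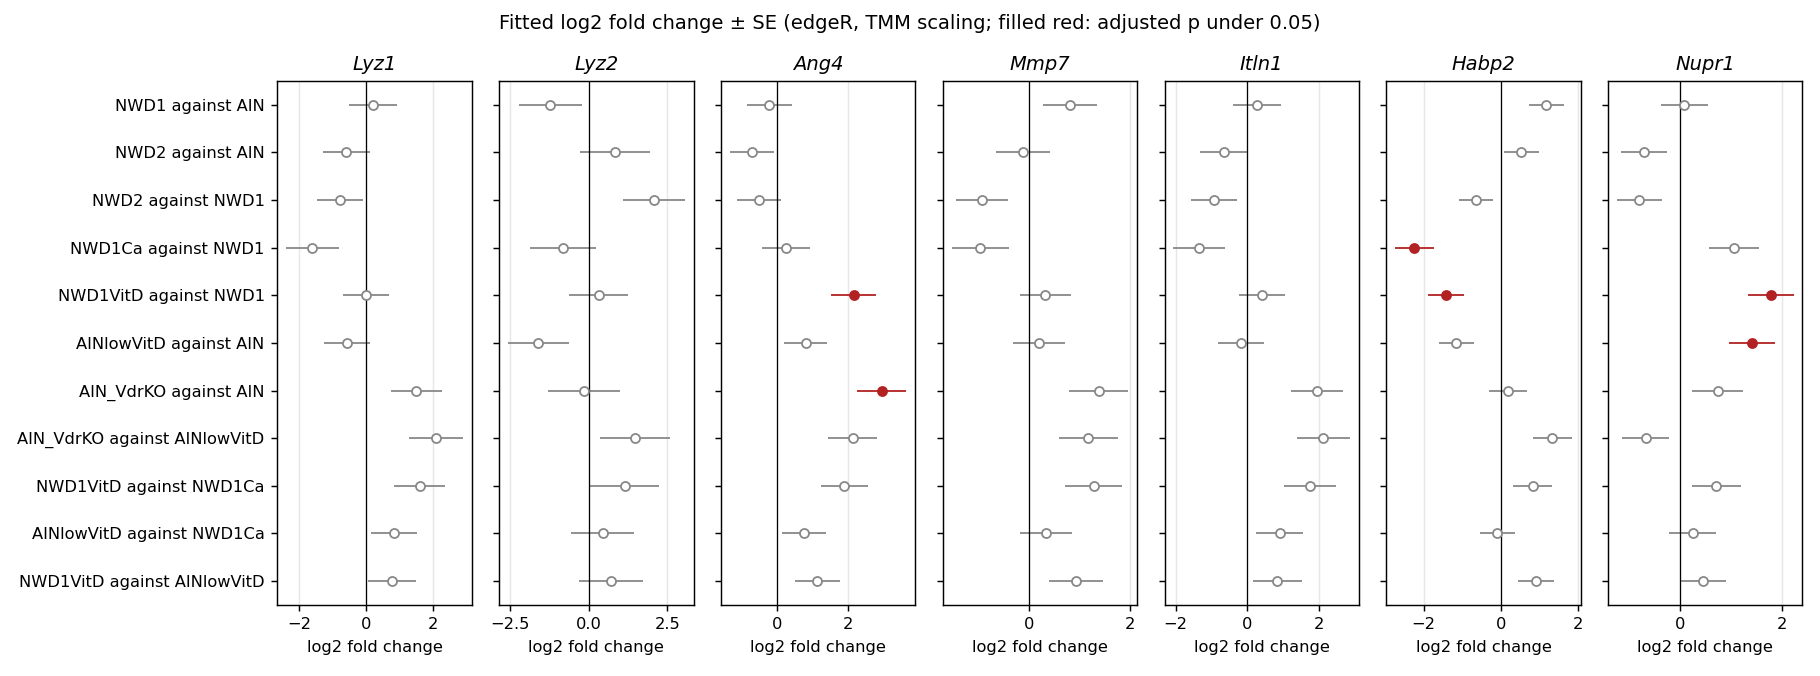
Fitted log2 fold change of each gene with its standard error in the 11 comparisons, the group named first over the other, with filled red markers where the adjusted p is under 0.05. The 6 filled markers belong to Ang4, Habp2 and Nupr1; Lyz1, Lyz2, Mmp7 and Itln1 have none.

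The lysozymes showed wide spread and no call in the main fit. With no filter on low counts edgeR called Lyz1 lower in NWD1Ca against NWD1 (-1.65, adjusted p = 0.00183) and Lyz2 higher in NWD2 against NWD1 (2.07, adjusted p = 0.0127). Lyz1 differed by 1.49 ± 0.77 (log2, SE) in AIN_VdrKO against AIN (edgeR adjusted p = 0.22) and by 2.08 ± 0.80 in AIN_VdrKO against AINlowVitD (adjusted p = 0.158). With 1 library at a time left out, these ran from 0.45 to 1.85 and from 1.04 to 2.95. On the CPM scale the lowest AIN_VdrKO library of Lyz1, at 2159 CPM, was above the highest AIN library, at 2015 CPM, as 14% of all tested genes were, but on TPM the groups overlapped. In NWD1Ca against NWD1 the difference was -1.60 ± 0.78 (adjusted p = 0.124), and the groups did not overlap on either scale, as for 24.4% of tested genes on CPM. In NWD1VitD against NWD1 it was -0.01 ± 0.68 on the fitted scale (adjusted p = 0.99), and on log2(TPM + 1), with that scale's shift of -1.38, limma gave -1.68. In AINlowVitD against AIN the fitted value was -0.58 ± 0.69, and the TPM of all AINlowVitD libraries lay below all of AIN, as for 58.1% of tested genes.

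Lyz2 was near its floor in most libraries. It had 3.20, 2.45 and 0.807 TPM in AIN_VdrKO, 0.560 to 0.975 in NWD1VitD, 0.339 to 1.1 in AINlowVitD and 0.212 to 1.07 in NWD1Ca. In NWD2 it had 2.32, 17.7 and 0.928 TPM, in NWD1 1.3, 1.63 and 3.82, and in AIN 3.97, 7.28 and 1.1. The second NWD2 library was the highest, with 625 Lyz2 counts, and 1 AIN library followed with 472. The only unadjusted p under 0.05 for Lyz2 was in NWD2 against NWD1, a difference of 2.07 ± 0.98 (log2, SE; edgeR adjusted p = 0.465), which was -0.37 without that NWD2 library. Beside this, the 19 macrophage and myeloid markers summed to 117 to 188 TPM in NWD2, 108 to 141 TPM in NWD1 and 146 to 185 TPM in AIN, and 61.0 to 186 TPM over the other groups. Their part in the Lyz2 level was not tested. Of the receptors that define macrophages, Csf1r had 61 counts and Emr1 17 in the second NWD2 library, and at most 5 and 7 in any other. Other listed markers were mixed. In that library C1qa had 52 counts and Ptprc 3702, the most of any library. Cd68 had 10 there, with 25 and 43 in the other NWD2 libraries, and Itgam 680, with 1489 in the third. Tyrobp had 18 there and 53 in the first AINlowVitD library. The AIN library second in Lyz2 had 2 counts of Csf1r and 0 of Emr1. Emr1 or Csf1r was at 0 in 14 of 21 libraries, and the pan-leukocyte gene Ptprc had counts in all.

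Ang4, the antimicrobial ribonuclease, was the member called in the Vdr comparison. It had 1966, 3688 and 487 TPM in AIN_VdrKO, against 297, 327 and 403 TPM in AIN. Every AIN_VdrKO library was above every AIN library, and the third of them was only just so. A background of 8.7% of tested genes lay fully higher in TPM and 14% in CPM. The means were 2047 ± 1602 TPM in AIN_VdrKO and 342 ± 54.5 TPM in AIN (SD, n = 3 each), and the fitted log2 fold change was 2.92 ± 0.70 (SE, edgeR adjusted p = 0.00951). Without the third AIN library, the only male of that group, the edgeR adjusted p was 0.0577. The first 2 AIN libraries and the first NWD1 library were less negative on the first principal component than the other AIN, NWD1 and NWD2 libraries. A fit without them left AIN with 1 library, so no p-value is given for it here. Over 17 alternatives the Ang4 difference ran between 2.1 and 3.43 on the log2 scale, with adjusted p-values up to 0.108 and 14 calls. Against AINlowVitD, at 103, 429 and 272 TPM, the AIN_VdrKO difference was 2.12 ± 0.68 (edgeR adjusted p = 0.0923). The groups overlapped on CPM but not on TPM, where 51.9% of tested genes lay fully higher. AIN_VdrKO mice were all male while AIN held both sexes, and the term for sex gave 0.05 for Ang4 (male minus female, log2).

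On the NWD1 diet Ang4 was higher with added vitamin D on the CPM scale. It had 229.5, 513 and 641 CPM in NWD1VitD, against 166, 80.6 and 67.3 CPM in NWD1, with no overlap, where 25% of tested genes lay fully higher. In TPM the same libraries had 335, 648 and 731 in NWD1VitD and 518, 322 and 313 in NWD1, which overlapped. The fitted log2 fold change was 2.15 ± 0.63 (SE, edgeR adjusted p = 0.0107). It was 0.53 on log2(TPM + 1), not called there, and 1.26 when each library was corrected for gene length (adjusted p = 0.0866), Ang4 lying at the 7.96th percentile of tested genes by length. The call was also lost without the third NWD1 library (adjusted p = 0.0566) or the third NWD1VitD library (adjusted p = 0.0591), and over 18 alternatives adjusted p-values reached 0.595 with 12 calls.

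With added calcium Ang4 was not called. It had 189, 133 and 242 TPM in NWD1Ca, and the fitted difference from NWD1 was 0.26 ± 0.68 (edgeR adjusted p = 0.798). All 3 NWD1VitD libraries were above all 3 NWD1Ca libraries on both scales, a difference of 1.89 ± 0.66 on the log2 scale. That comparison had an adjusted p of 1 for every member in edgeR, and a background of 1.22% of tested genes lay fully higher in TPM and 3.53% in CPM. In AINlowVitD against AIN the Ang4 difference was 0.81 ± 0.60 (adjusted p = 0.323). NWD2 had 271, 256 and 312 TPM.

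Of the 50-base windows of the Ang4 transcript 4.7% recur in a transcript of Ang, Ang2, Ang5 or Ang6, and 0 of its 100-base windows do, so a small part of its reads could be shared with those relatives.

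Mmp7, the defensin-processing protease, differed less. It had 193, 587 and 411 TPM in AIN_VdrKO, against 183, 163 and 162 TPM in AIN. The groups did not overlap, and the log2 difference was 1.39 ± 0.59 (SE, edgeR adjusted p = 0.128). It ran from 0.89 to 1.64 with 1 library at a time left out. A background of 8.7% of tested genes lay fully higher in AIN_VdrKO than in AIN in TPM. NWD1 was also fully above AIN in TPM, at 517, 268 and 412, a fitted difference of 0.82 ± 0.54 (adjusted p = 0.512), with 15.5% of tested genes fully higher in that comparison. NWD2 had 207, 264 and 166 TPM. In the remaining groups it had 55.9, 159 and 272 TPM in NWD1VitD, 63.2, 131 and 73.9 in AINlowVitD, and 52.9, 86.1 and 115 in NWD1Ca. The NWD1VitD libraries spread widely, and the difference from NWD1 was 0.33 ± 0.51 on the fitted scale (adjusted p = 0.627), while on log2(TPM + 1) it was -1.51 with the shift of -1.38.

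Itln1, the lectin, went with Lyz1. It had 3220.4, 9588 and 3340.5 TPM in AIN_VdrKO, against 1116, 2017 and 1999 TPM in AIN. The groups did not overlap, where 8.7% of tested genes lay fully higher in TPM and 14% in CPM. The log2 difference was 1.94 ± 0.73 (SE, edgeR adjusted p = 0.0885), and it ran from 1.17 to 2.29 when 1 library at a time was left out. DESeq2 called it, as did the fit without sex. Against AINlowVitD, at 244, 1309 and 482 TPM, the AIN_VdrKO difference was 2.11 ± 0.74 (edgeR adjusted p = 0.125), and 1.36 to 2.86 with 1 library at a time left out. Again there was no overlap, where 51.9% of all tested genes lay fully higher in TPM. In NWD1Ca it had 341, 308 and 644 TPM, against 3984, 1319.7 and 2466 in NWD1, a fitted difference of -1.34 ± 0.72 (adjusted p = 0.166). NWD1VitD had 464, 1002 and 1928 TPM and NWD2 1629, 1214 and 1459 TPM, and neither was called against NWD1.

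Habp2, the secreted protease, was the member that kept the groups most apart. It had 1.83, 2.70 and 2.80 TPM in NWD1Ca, against 25.7, 31.9 and 34.9 TPM in NWD1. Every NWD1Ca library was below every NWD1 library by a wide margin, and the fitted log2 fold change was -2.24 ± 0.50 (SE, edgeR adjusted p = 0.00314). That call held in all 18 alternatives, with values between -3.53 and -2.05. A background of 58.3% of tested genes lay fully lower in NWD1Ca than in NWD1 in TPM.

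NWD1VitD had 2.33, 3.11 and 5.49 TPM of Habp2. Its libraries too lay below all NWD1 libraries, where 61.6% of tested genes did so in TPM, and the fitted value was -1.42 ± 0.45 (log2, SE; edgeR adjusted p = 0.0180). The call was lost without the first (adjusted p = 0.083) or the second NWD1VitD library (adjusted p = 0.0737). A fit without the first 2 NWD1 libraries, which had the largest spike-in shares, left NWD1 with 1 library. No p-value is given for that fit here, though it is among the 18 alternatives. Over these the fitted value ran between -3.12 and -1.12, with 15 calls. NWD1VitD and NWD1Ca were not called apart, at 0.82 ± 0.50.

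AINlowVitD had 1.1, 2.94 and 1.89 TPM of Habp2, against 6.09, 11.3 and 12.5 TPM in AIN. All 3 lay below all AIN libraries, as did 58.1% of tested genes in TPM, and the fitted difference was -1.15 ± 0.46 (log2, SE; edgeR adjusted p = 0.0608). Habp2 in NWD1 was above AIN in every library and on both scales, a mean of 30.8 ± 4.67 TPM in NWD1 and 9.95 ± 3.39 TPM in AIN (SD, n = 3 each), with a fitted difference of 1.18 ± 0.46 (adjusted p = 0.217) and 5.92% of tested genes fully higher on CPM. NWD2, at 17.9, 21.1 and 18 TPM, lay between them without overlap with either in TPM, as 10.2% of tested genes lay fully above AIN and 3.43% fully below NWD1. Ordered by mean TPM, Habp2 was the only member whose neighbouring groups separated: NWD1 above NWD2, NWD2 just above AIN_VdrKO and AIN above NWD1VitD. What share of all tested genes separates in the last 2 of these pairs was not worked out. AIN and NWD1VitD lie on opposite sides of the first principal component. AIN_VdrKO had 3.50, 17.1 and 9.92 TPM and overlapped AIN, a difference of 0.18 ± 0.49.

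Nupr1, the stress-induced nuclear protein, had calls on the fitted scale that TPM did not show. Other members moved about as much between those scales in NWD1VitD against NWD1, where all tested genes shifted by a median of -1.38. It had 27.2, 41.9 and 88.6 CPM in NWD1VitD, against 22.9, 12.1 and 11 CPM in NWD1. The groups did not overlap, where 25% of tested genes lay fully higher in CPM. The third NWD1VitD library stood highest, and the fitted log2 fold change was 1.78 ± 0.44 (SE, edgeR adjusted p = 0.00407). In TPM the same libraries had 11.5, 15.3 and 29.2 in NWD1VitD and 20.7, 14 and 14.9 in NWD1, which overlapped, and on log2(TPM + 1) the difference was 0.08. Without the third NWD1VitD library it was 1.22 (adjusted p = 0.0512); over 18 alternatives adjusted p-values reached 0.998, with 14 calls.

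In AINlowVitD Nupr1 had 27.6, 23.2 and 57.7 CPM, against 16.9, 13.3 and 7.63 CPM in AIN. These did not overlap either, with 21.7% of tested genes fully higher, and the fitted value was 1.41 ± 0.45 (log2, SE; edgeR adjusted p = 0.0227). TPM was 10.1, 8.99 and 20.5 in AINlowVitD and 12.1, 10.4 and 7.78 in AIN, and the groups overlapped, at 0.29 on log2(TPM + 1). The call was lost without the third AIN library (adjusted p = 0.144) or the third AINlowVitD library (adjusted p = 0.127), and over 17 alternatives adjusted p-values reached 0.657 with 12 calls. In NWD1Ca, at 17.8, 29.9 and 33.2 CPM, the difference from NWD1 was 1.07 ± 0.49 (adjusted p = 0.103).

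**Figure D3:**
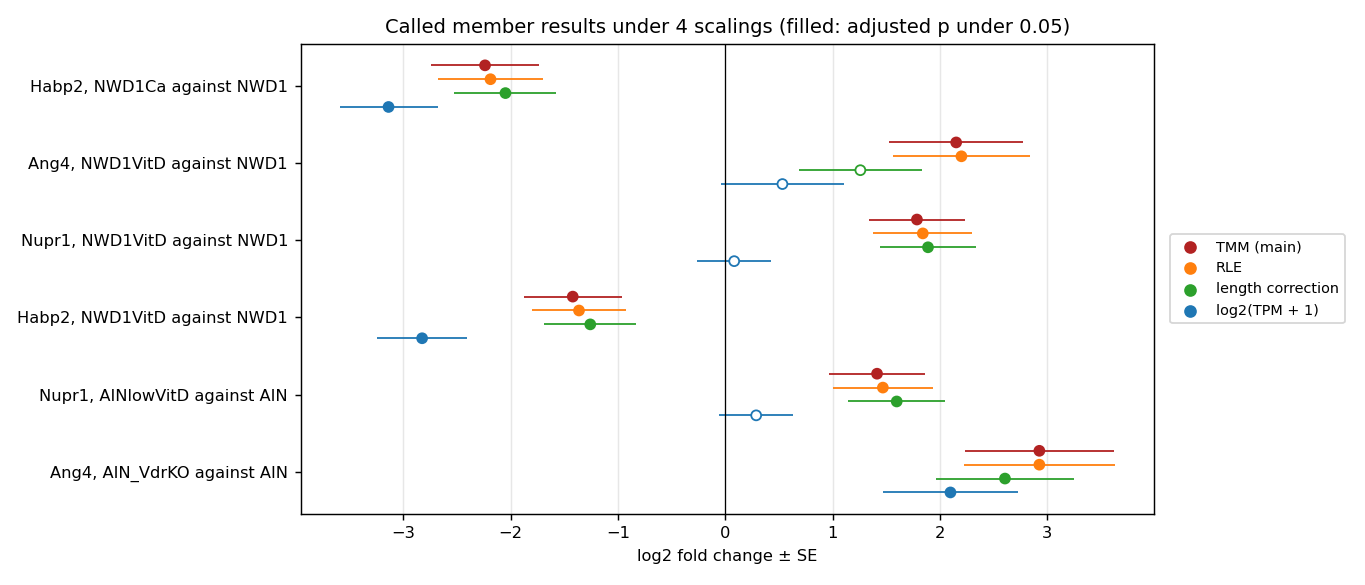
Log2 fold change with its standard error for the 6 called results under TMM scaling, RLE scaling, a length correction and log2(TPM + 1), filled where the adjusted p is under 0.05. Habp2 is lower under all 4, while Ang4 and Nupr1 in NWD1VitD against NWD1 stand at 2.15 and 1.78 with TMM and at 0.53 and 0.08 on log2(TPM + 1).

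The level of a member relative to Lyz1 in the same library does not depend on how libraries are scaled. It can still carry effects of gene length, as Ang4 has 0.561 of the length of Lyz1. Ang4 stood at 60.4%, 53.9% and 33.6% of the Lyz1 TPM in NWD1VitD, against 8.24%, 13.6% and 9.78% in NWD1. It stood at 40.3%, 26.6% and 50% in AINlowVitD, against 16.6%, 10.7% and 12.2% in AIN, and at 29.5% to 46.3% in NWD1Ca. The 9 libraries of NWD1VitD, AINlowVitD and NWD1Ca thus had 26.6% to 60.4%, and the 9 of NWD2, NWD1 and AIN 8.24% to 16.6%, with no overlap. The first principal component splits the same sets. What share of all tested genes separates groups relative to Lyz1 was not worked out, for this ratio or those below. In AIN_VdrKO the share was 84.0%, 28.5% and 10.2%, a spread wider than either.

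Itln1 relative to Lyz1 followed the same split with smaller steps. It was 78.3% to 95.9% over NWD1VitD, AINlowVitD and NWD1Ca, and 51.3% to 77% over NWD2, NWD1 and AIN. Its AIN_VdrKO values were 138%, 74.0% and 70.1%, so the first of these libraries held more Itln1 than Lyz1 per length. Nupr1 was 0.557% to 3.96% of Lyz1 over NWD1VitD, AINlowVitD and NWD1Ca and 0.235% to 0.677% over NWD2, NWD1 and AIN, with an overlap through 1 AINlowVitD library. Mmp7 overlapped broadly, at 8.14% to 24.8% and 4.90% to 13.9%. Habp2 ranged lower but overlapped broadly, at 0.182% to 0.763% over NWD1VitD, AINlowVitD and NWD1Ca and 0.341% to 1.35% over NWD2, NWD1 and AIN. Its mean was 0.518% in NWD1Ca and 0.362% in AIN, so not every group followed the split. Its AIN_VdrKO shares, 0.150%, 0.132% and 0.208%, lay below all AIN shares of 0.341%, 0.370% and 0.377%.

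**Figure D4:**
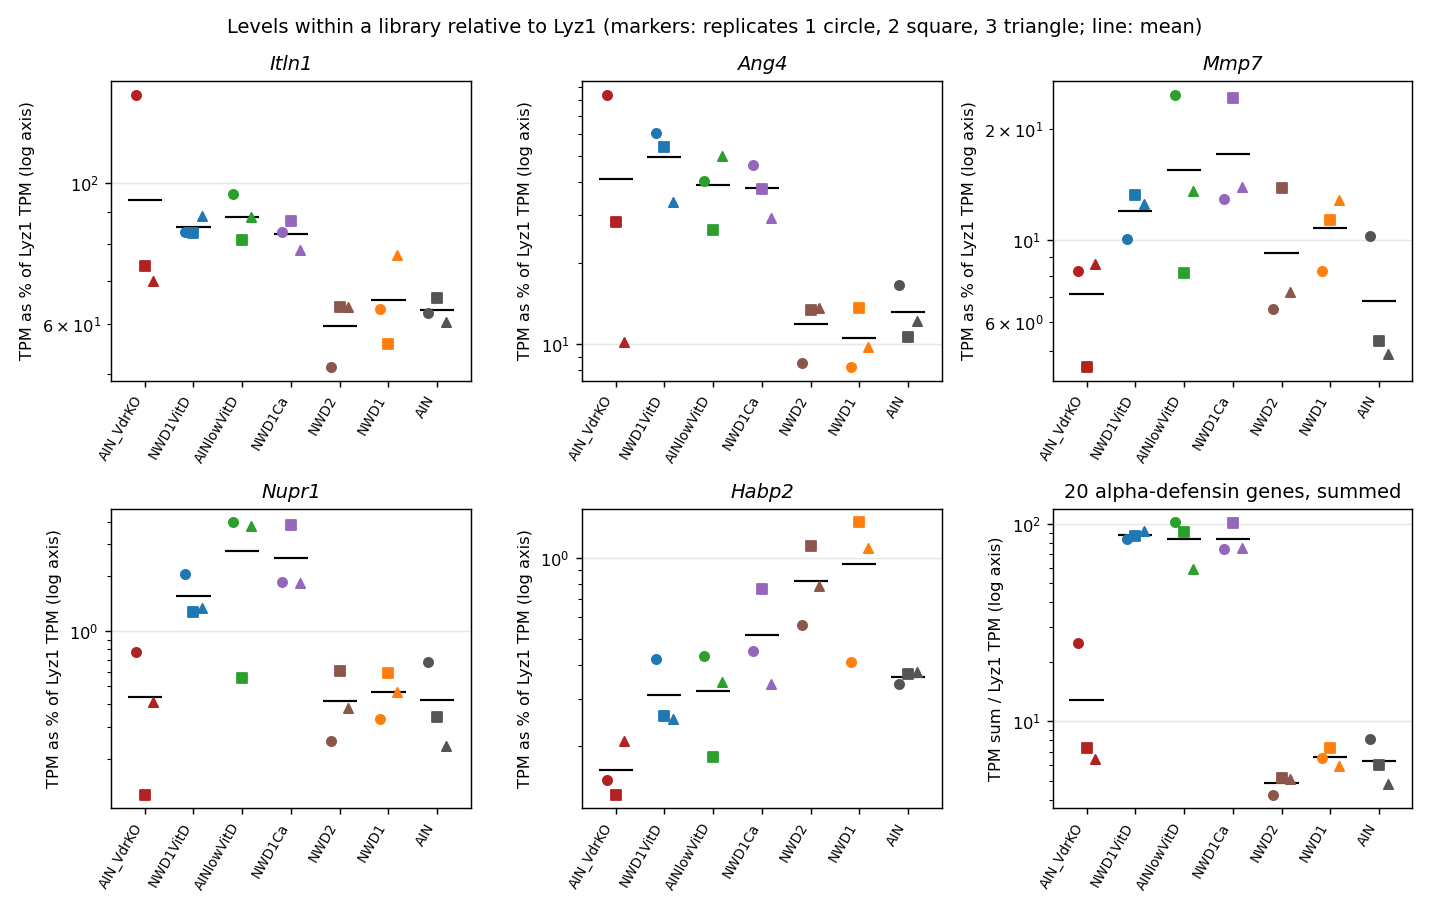
TPM of 5 genes as a percent of Lyz1 TPM in the same library, and the summed TPM of 20 alpha-defensin genes over Lyz1 TPM, on log axes. Ang4 and the defensin sum separate NWD1VitD, AINlowVitD and NWD1Ca from NWD2, NWD1 and AIN, and Habp2 is lowest in AIN_VdrKO.

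The alpha-defensins, the main Paneth cell peptides, give the setting for these ratios. The summed TPM of 20 alpha-defensin genes was 83.9 to 91.6 times the Lyz1 TPM in NWD1VitD, 59.1 to 102 times in AINlowVitD and 74.5 to 101 times in NWD1Ca. It was 4.24 to 5.18 times in NWD2, 5.94 to 7.31 times in NWD1 and 4.81 to 8.12 times in AIN, and 24.9, 7.33 and 6.43 times in AIN_VdrKO. Of these 20 genes 18 were called higher in NWD1VitD against NWD1, with a median log2 fold change of 3.89 against -0.03 over all tested genes, while of the members Lyz1, Itln1 and Mmp7 were not called. In AINlowVitD against AIN 18 were higher, with a median of 3.15. In NWD1Ca against NWD1 2 were higher, with a median of 1.62. Over all tested genes 40.5%, 31.3% and 30.5% were called in these comparisons, in the order given. In AIN_VdrKO against AIN 5 were higher and 2 lower, with 12.5% of all tested genes called. Among the lower, Defa21 averaged 1.00 TPM in AIN_VdrKO and 76.1 TPM in AIN. Defensin genes share near-identical sequence, so single ones are uncertain.

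Of 16 tested genes among other Paneth cell products, 5 were higher and 1 lower in NWD1VitD against NWD1, 3 and 1 in NWD1Ca against NWD1, and 2 and 0 in AINlowVitD against AIN. Over all tested genes 40.5%, 30.5% and 31.3% were called in these comparisons, so the counts lie near or below the background. Those with the smallest p included Reg3a, a bactericidal lectin, at 436 TPM in NWD1VitD and 92.9 TPM in NWD1, and Tff3 and Spink4, which goblet cells also make. Reg3a was also called lower in NWD1 than in AIN, where it had 672 TPM (edgeR adjusted p = 0.0302). Rnase4 had the smallest p in NWD1Ca against NWD1 and was lower, at 75.6 TPM in NWD1Ca and 491 TPM in NWD1. In AIN_VdrKO against AIN, with 12.5% of all tested genes called, 3 of the 16 were higher, all known from inflamed or microbially stimulated gut epithelium. They were the iron-binding Lcn2, at 23.2 TPM in AIN_VdrKO and 0.0465 TPM in AIN, and the lectins Reg3b and Reg3g. Reg3b was at 72051 TPM in AIN_VdrKO and 4494 TPM in AIN, and Reg3g at 35065 TPM in AIN_VdrKO and 3306 TPM in AIN. Of 20 genes of Paneth cell fate and niche, 1 was higher in AIN_VdrKO against AIN, below the 12.5% of all tested genes called there. It was the transcription factor Sox9, which Paneth cells need to form, by 1.45 ± 0.43 (log2, SE, edgeR adjusted p = 0.0335). In NWD1VitD against NWD1, with 40.5% of all tested genes called, 2 of these 20 were higher and 5 lower. Among them the Notch ligands Dll1 (-1.77 ± 0.35) and Dll4 (-1.57 ± 0.38) were lower and the Wnt receptor Fzd5 (1.43 ± 0.30) higher. In TPM Fzd5 averaged 8.02 in NWD1VitD and 8.67 in NWD1, so its direction there turned on the scale. In NWD1Ca against NWD1 2 of the 20 were higher and 7 lower, with Dll1 at -1.92 ± 0.37 and Fzd5 at 1.60 ± 0.34. In AINlowVitD against AIN 3 were higher and 3 lower, with Dll1 at -1.35 ± 0.35 and Fzd5 at 0.98 ± 0.30. Over all tested genes 30.5% and 31.3% were called in these 2 comparisons. The Dll1 and Fzd5 calls were thus not particular to added vitamin D. In AIN_VdrKO against AINlowVitD, with 3.07% of all tested genes called, 1 of the 16 products was higher and 2 lower.

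Across libraries most members varied together, Lyz2 and Nupr1 less so. After each group's mean was removed, log2 CPM of Lyz1 and Itln1 had a Pearson r of 0.97 over 21 libraries. Lyz1 had 0.82 with Mmp7, 0.82 with Habp2 and 0.72 with Ang4, and Ang4 and Itln1 had 0.81. Lyz2 had at most 0.42 with any other member and Nupr1 at most 0.62, with Mmp7. That value stood above those of Ang4 with Mmp7 (0.56) and with Habp2 (0.51). With group means kept, Lyz1 and Itln1 still had 0.96, but Habp2 and Ang4 had -0.03, against 0.51 within groups. These values describe libraries that share depth, sort and scaling.

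**Figure D5:**
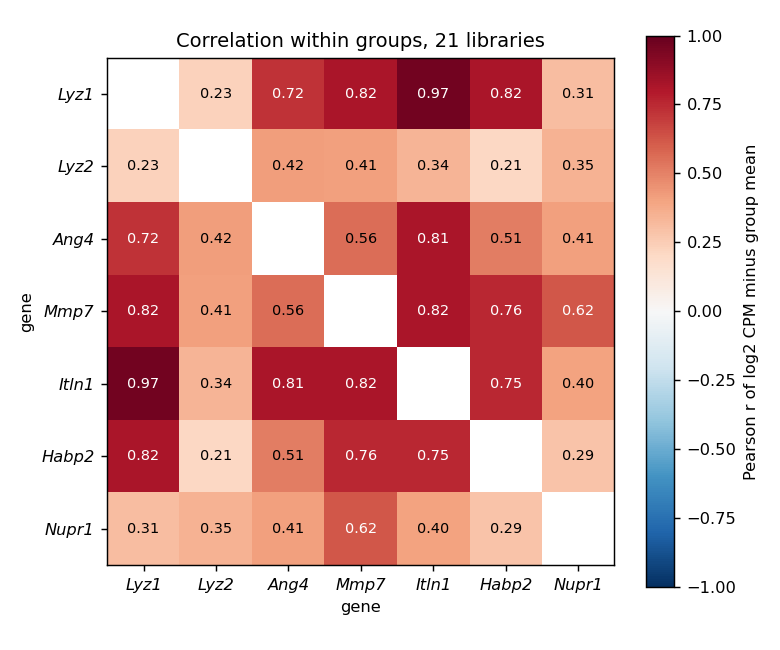
Pearson r between genes of log2 CPM after removing group means, over 21 libraries. Lyz1, Itln1, Mmp7, Ang4 and Habp2 have r between 0.51 and 0.97 with one another, and Lyz2 has r of at most 0.42 with every other gene.

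The genes most like each member by the same measure were mostly defensins. For Lyz1 they included Defa26, at 0.91, and Defa5, at 0.88, and both were also among those of Itln1, at 0.95 and 0.94. For Mmp7 they were Defa21, Defa22 and Defa20, at 0.86 to 0.87, and for Habp2 Defa22, Pnliprp2 and Defa21, at 0.79 to 0.83. With group means kept, Mmp7 had -0.03, 0.14 and 0.04 with these genes, and Habp2 -0.21, 0.47 and -0.17. Lyz1 then had 0.12 with Defa26 and 0.38 with Defa5, and Itln1 had 0.26 and 0.56. For Ang4 they were AY761184, an alpha-defensin gene, Defa26 and Clps, the pancreatic colipase, at 0.86 to 0.88. Nupr1 stood elsewhere, with Klk1, Guca2a and Agr2 at 0.83 to 0.88, and Lyz2 with Ppp1r14c, Limd2 and Cmtm8 at 0.82 to 0.83. With group means kept these were 0.59 to 0.83 for Ang4, 0.72 to 0.77 for Nupr1 and 0.30 to 0.56 for Lyz2.

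Guca2a and Agr2 are on the list of goblet cell markers, so the whole list was read beside Nupr1. Its 12 genes summed to 65885 to 118413 TPM in NWD1VitD and 33330 to 73941 TPM in NWD1. They summed to 61904 to 90372 TPM in AINlowVitD and 36275 to 76909 TPM in AIN, and no marker was at 0 in any library. In NWD1Ca, where Nupr1 was not called against NWD1, they summed to 84955 to 92131 TPM, and in NWD2 to 36628 to 65078 TPM. Of the 12, 3 were called higher in NWD1VitD against NWD1 and 3 in AINlowVitD against AIN, with median log2 fold changes of 0.34 and 0.25 over the list. Over all tested genes 40.5% and 31.3% were called in these comparisons. In AIN_VdrKO the sum was lower, 21097 to 37637 TPM, while Nupr1 had 18, 16.5 and 19.4 TPM. Whether goblet cell RNA takes part in the Nupr1 level was not tested. Among 17 genes of the integrated stress response, to which Nupr1 is tied, 4 were higher and 5 lower in NWD1VitD against NWD1 and 2 higher and 1 lower in AINlowVitD against AIN. The same shares of all tested genes, 40.5% and 31.3%, stand beside these counts.

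Enterocyte and stem cell RNA also varied with the groups. The 15 enterocyte markers summed to 40298 to 70153 TPM in NWD1VitD, 33769 to 58939 TPM in NWD1Ca and 5505 to 11988 TPM in NWD1, and the 15 Lgr5 stem cell markers to 371 to 1232 TPM in NWD1VitD, 537 to 834 TPM in NWD1Ca and 6207 to 10418 TPM in NWD1. The part of either in the members' values was not tested.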

How the data were processed

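Lgr5-EGFP-sorted intestinal cells were profiled by SMART-Seq v4 and Nextera XT paired-end RNA-seq, per the labels' protocols, which do not mark strand. Reads were aligned with STAR 2.4.2a and counted with HTSeq 0.6.1 on mm9, and edgeR was used, per the submitters' processing notes. The authors deposited raw gene counts and TPM, whose values are the counts per length rescaled to 1000000 in each library, for 21 libraries.

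Here 92 ERCC spike-ins were left out, filterByExpr kept 16050 genes, and edgeR 4.0.16 in R 4.3.3 fitted group means and sex in 1 quasi-likelihood model of the counts with TMM scaling, two-sided, with Benjamini-Hochberg adjustment over all tested genes and a threshold of 0.05. Standard errors were taken from the fold change and its F statistic. Alternatives were RLE scaling, no filter, DESeq2 1.42.0, limma 3.58.1 on log2(TPM + 1) and log2(TPM + 0.1), no sex term, a replicate block, 2-group fits and left-out libraries, and, chosen after seeing the data, a length correction and 2 sets of left-out libraries. The functions were tested on simulated data. Correlations used log2 CPM with a prior count of 2. Named genes were the members; for each, the 3 tested genes of highest within-group r among those with mean log2 CPM of at least 2, with sex-linked genes, predicted genes and clones left out; and, of the listed Paneth genes, up to 3 called ones of smallest p. Of the genes this rule names, 1 is not reported here. Markers of other lists are given as sums or counts of calls, apart from the myeloid and leukocyte markers named beside Lyz2. The members and lists were chosen with earlier results of these data known. Promoters came from RefSeq (all 7 matched) and transcripts from GENCODE M21, both GRCm38. No library pair agreed within sampling noise.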

Additional observations from a re-analysis of the deposited data

How the results depend on the processing

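Among the alternatives, the Habp2 call in NWD1Ca against NWD1 held in all 18, and no called fold change changed sign in any. With no filter on low counts the members called were 1 in NWD1 against AIN, 1 in NWD2 against NWD1, 5 in NWD1Ca against NWD1, 3 in AINlowVitD against AIN, 4 in AIN_VdrKO against AIN, 5 in AIN_VdrKO against AINlowVitD and 2 in NWD1VitD against NWD1Ca. In that order 969, 842, 5035, 4903, 2387, 1448 and 117 of 27918 genes were called. DESeq2, and likewise edgeR without sex, called 2 in AIN_VdrKO against AIN and 2 in AIN_VdrKO against AINlowVitD. Of 16050 tested genes DESeq2 called 2990 and 1166 there, and edgeR without sex 2811 and 1315. On log2(TPM + 1) limma called 4 in NWD1Ca against NWD1, 3 in AINlowVitD against AIN and 5 in AIN_VdrKO against AINlowVitD. It called 9092, 8101 and 5155 of 16050 tested genes there. With a pseudocount of 0.1 the members were 4, 4 and 5, beside 9111, 8645 and 6293 of all genes. With no filter on low TPM they were 4, 2 and 5, with 0 in AIN_VdrKO against AIN, where edgeR called 1. All genes called then were 8633, 7164, 2802 and 1026 of 27918. Fits of 2 groups alone called 2 in NWD1Ca against NWD1, with 5508 of 14153 tested genes called, and 2 in AINlowVitD against AIN, with 4608 of 14342. The fit without the first 2 AIN libraries and the first NWD1 library kept 1 library in AIN, whose spread was taken from the other groups. No count of members called is given for that fit here. The length correction called 2 in NWD1Ca against NWD1 and 1 in AIN_VdrKO against AINlowVitD, with 4807 and 552 of 16050 tested genes called. Leaving out 1 library at a time gave 1 to 3 members in NWD1VitD against NWD1 and 0 to 2 in AINlowVitD against AIN. It gave 0 to 1 in AIN_VdrKO against AIN and 0 to 1 in AIN_VdrKO against AINlowVitD. In that order 4864 to 6889, 3210 to 4945, 992 to 2654 and 130 to 1941 of all tested genes were called, of 16279 to 16581 tested. The cause was not tested.

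Signs turned only in values that the main fit did not call. For Lyz1 in NWD1VitD against NWD1, -0.01 became 0.039 with RLE scaling and 0.039 with DESeq2, 0.83 without the first 2 AIN libraries and the first NWD1 library and 0.70 without the first 2 NWD1 libraries. On log2(TPM + 1), filtered or not, Ang4 was -0.96 and Nupr1 -0.30 in NWD1Ca against NWD1, Mmp7 -1.51 and Itln1 -1.28 in NWD1VitD against NWD1, and Ang4 -0.57 in AINlowVitD against AIN; with a pseudocount of 0.1 these were -0.97, -0.33, -1.52, -1.28 and -0.57. The length correction gave -0.77 for Ang4 in NWD1Ca against NWD1, -0.13 for Mmp7 in NWD1VitD against NWD1 and -0.21 for Ang4 in AINlowVitD against AIN. Lyz2 in NWD1 against AIN was 1.03 without the first 2 AIN libraries and the first NWD1 library. Without 1 library at a time, Lyz1, Itln1 and Mmp7 in NWD1VitD against NWD1 ran from -0.81 to 0.78, -0.49 to 1.19 and -0.52 to 0.82, Itln1 in AINlowVitD against AIN from -1.12 to 0.21, Ang4 in NWD1Ca against NWD1 from -0.15 to 0.68 and Lyz2 in NWD2 against NWD1 from -0.37 to 2.85.

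Libraries of the same replicate number deviated together in some pairs and not in others. For numbers 1, 2 and 3, 8, 4 and 7 of 21 pairs had a correlation over 0.1. The correlations ran from -0.30 to 0.49, from -0.28 to 0.23 and from -0.12 to 0.41, in that order. The labels state no pairing by number, so the numbers were not taken as pairs in the main fit. A replicate block called 2 members in AINlowVitD against AIN, with 5121 of 16050 tested genes called. Habp2 at -1.20 was the added one, and the block moved no other count of members called. Summing Lyz1 and Lyz2 counts changed no Lyz1 call in 11 comparisons. Depth limits Lyz2 most, with as few as 6 counts in a library.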
